A study of Mus musculus with 22 samples.

Results

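The infrarenal aorta of untreated mice was compared with the suprarenal aorta, a regional comparison within the normal abdominal vessel. It rests on 4 of the 22 arrays of the series, chosen by their labels as the aortic pools without treatment. Both infrarenal pools, 1 from wild type (WT) and 1 from tenascin C knockout (TNC-KO) mice, were set against both suprarenal pools. All mice were C57BL/6 males. Each pool held RNA of 5 mice, and each array measured 1 pool. The suprarenal piece ran 10 mm upward from the right renal artery and the infrarenal piece 10 mm downward from the left one. TNC-KO mice lack tenascin C, a matrix glycoprotein, and how the allele was made is not given in the sources used here. A further 4 pools of 8 mice each, taken from the same segments and genotypes after 0.5 M CaCl2 was applied around the infrarenal aorta and angiotensin II was infused at 1 ug/min/kg for 1 week (CaAngII), served to see which segment differences remained.

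The aorta is known to keep a memory of body position in its Hox genes, transcription factors that lie in clusters and whose members near one end of a cluster are used in ever more posterior tissue. Along its length the wall also changes in the mix of contractile smooth muscle, matrix and endothelium. The vessel is wrapped in perivascular fat, and the upper abdominal aorta runs past the coeliac and superior mesenteric sympathetic ganglia, the adrenal glands, lymph nodes and the muscle of the diaphragm. RNA of a piece of tissue mixes all of these, so fewer cells of a type and less RNA per cell cannot be told apart in these data.

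Signal is the deposited linear intensity of the probe set standing for a gene, scaled by the authors to a common mean. A gene was tested when its signal reached the median of its array on at least 2 of the 4 arrays, which 11611 of 18193 genes did. A gene bright in only 1 segment could pass through the pools of that segment, and for such genes the filter favoured that side. The fit in limma removed the genotype difference and tested the segment difference. It therefore leaned on 1 residual degree of freedom, and its error is the disagreement between the genotypes together with a spread shared over genes. Genes with a Benjamini-Hochberg adjusted p under 0.05 were called. Differences are log2 of infrarenal over suprarenal signal, averaged over the genotypes, and SE is the standard error that limma gives.

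By this rule 1474 genes were higher in the infrarenal aorta, 12.7% of those tested, and 1939 were lower, 16.7%. A fit of all 8 aortic pools, which has more residual degrees of freedom, called 1179 and 1652 genes for the same untreated difference. Of these, 1156 and 1602 were also called from the 4 arrays. The 8-array fit takes this difference from the same 4 untreated arrays. Its direction was thus fixed in advance, and only the error and the genes tested change. Counts from all 8 arrays, here and below, are therefore no second measurement. At least 2-fold in both genotypes, with no test, 126 genes (1.09%) were higher and 682 (5.87%) were lower. The larger differences thus lay mostly on the suprarenal side. The 2 genotypes gave the same direction for 76.3% of genes tested, 4213 higher and 4641 lower, and their log2 ratios correlated at 0.82 across genes, which are not independent replicates. With 1 array left out at a time the higher calls numbered 477 without the WT infrarenal pool, 558 without the TNC-KO suprarenal pool, 577 without the TNC-KO infrarenal pool and 991 without the WT suprarenal pool, and the lower calls 974, 881, 947 and 1359 in the same order.

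**Figure D1:**
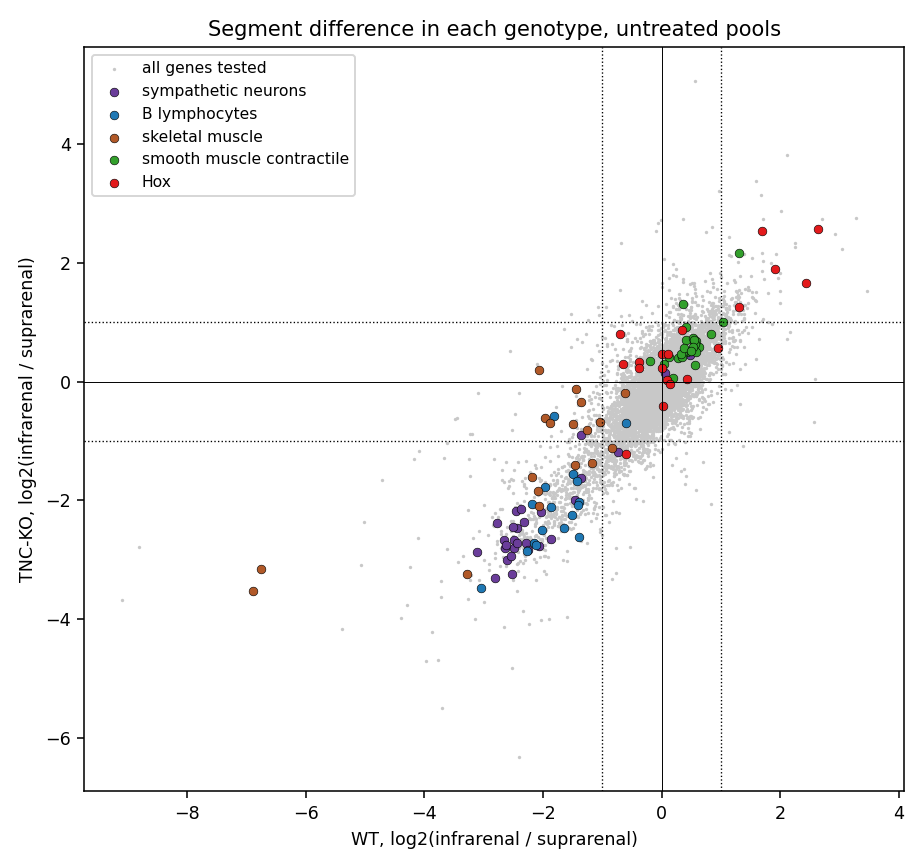
Log2 ratio of infrarenal over suprarenal signal in WT (x) and TNC-KO (y) untreated pools, 1 gene per point, with dotted lines at 2-fold. Sympathetic and B lymphocyte genes sit at the lower left, Hox genes of the posterior groups and contractile genes at the upper right, and most skeletal muscle genes lie left of 0 with a wide spread. The contractile genes lie near 0 when each array is centred on that list.

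The split of directions depends on the scale. The 28 contractile smooth muscle genes were higher in the infrarenal pools by a median of 0.53, and centring each array on that list, an alternative chosen after seeing the data, moved the median of all genes from -0.02 to -0.55. It left 277 genes higher and 8225 lower, so that 3.3% of calls were higher in place of 43.2%. Centring each array on its own median gave 1044 and 1707 calls, 37.9% higher. The values below are on the deposited scale, and a list's median on the contractile scale is given beside it, since a list near 0 there differed by about as much as the contractile genes did. A gene higher by less than 0.53 on the deposited scale lies near or below 0 on the contractile one.

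Signal of Tnc, the targeted gene, was 1805 (WT) and 258 (TNC-KO) in suprarenal and 2453 and 336 in infrarenal pools, lower in both TNC-KO pools than in both WT pools. Whether the probe set lies within the deleted part was not known here. Between segments Tnc differed little (log2 difference 0.41, SE 0.13, adjusted p = 0.0356). That call was lost when all 8 arrays were fitted, and its value turned to -0.12 on the contractile scale, to -0.99 without the TNC-KO suprarenal pool and to -1.02 without the WT infrarenal pool.

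Pools also differed in tissue from outside the vessel wall. Skeletal muscle signal, summed over 22 genes, was 116930 (WT) and 6814 (TNC-KO) in suprarenal and 30820 and 2909 in infrarenal pools. Both WT pools thus held far more of it than both TNC-KO pools. Some adrenal cortex and male accessory gland transcripts were highest in the TNC-KO infrarenal pool. The adrenal cortex list as a whole summed to 9924 (WT) and 7974 (TNC-KO) in suprarenal and 9723 and 14732 in infrarenal pools. Among steroid enzymes, Cyp11b1 had 51.9 and 39.7 suprarenal and 58.3 and 1012 infrarenal. Cyp11a1 stayed below the array median in every pool, and Cyp21a1 (127 and 56.2 suprarenal and 77.9 and 164 infrarenal) was not called. Hsd3b1 signal, of an enzyme of steroid synthesis, was 5.24 and 7.91 suprarenal and 8.75 and 2613 infrarenal, that of Star, which carries cholesterol into mitochondria, 210.3 and 202 suprarenal and 210.0 and 1332 infrarenal, and that of Svs4, a seminal vesicle secretory protein, 2.12 and 59.2 suprarenal and 36.6 and 4505 infrarenal. Keratins of simple epithelium, such as Krt8 (81.4 and 54.7 suprarenal and 77.4 and 436 infrarenal) and Krt19 (60.1 and 70.1 suprarenal and 13.9 and 316 infrarenal), followed the same pool. None of the 9 liver genes on the array reached the median signal of its array often enough to be tested. The part these tissues have in other differences was not tested, beyond the values without each pool.

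**Figure D2:**
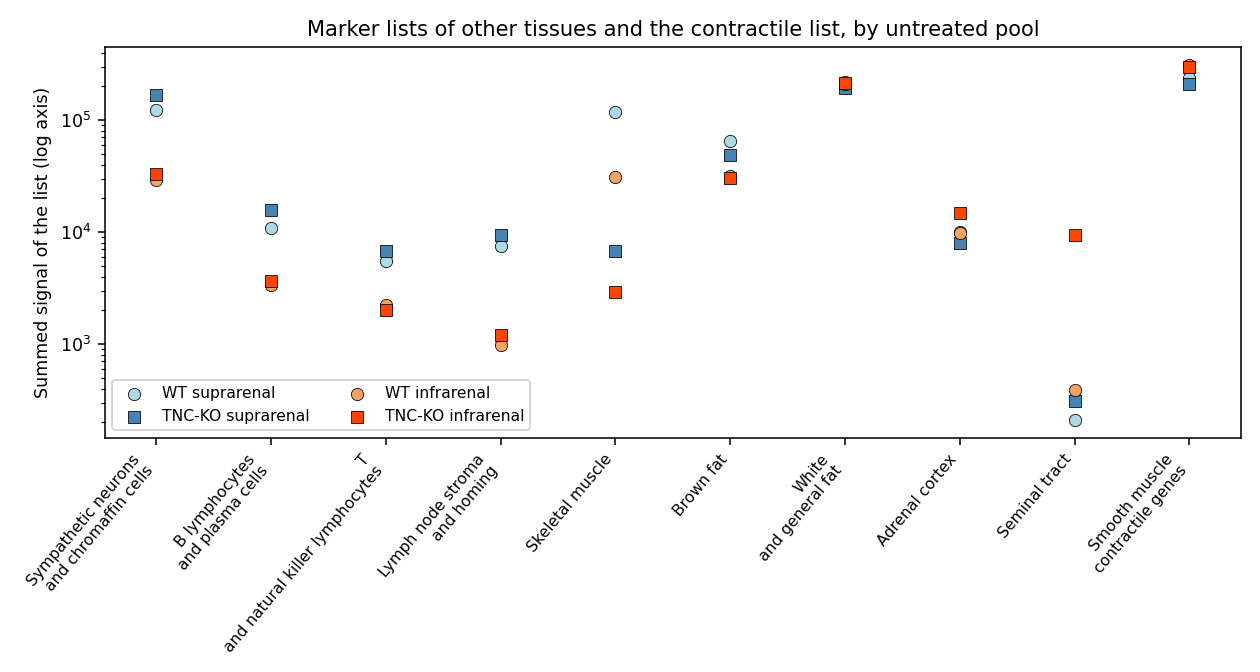
Summed signal (log axis) of marker lists in each of the 4 untreated pools, 1 symbol per array. Sympathetic, lymphocyte and lymph node lists are higher in both suprarenal pools, skeletal muscle is higher in both WT pools, and the seminal tract list is high in the TNC-KO infrarenal pool alone.

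The posterior Hox genes that could be tested were higher in the infrarenal aorta. Of 39 Hox genes written, 33 were on the array and 19 were tested. Of these 7 were higher in the infrarenal aorta and 1 was lower. Hoxa10 signal was 213 (WT) and 208 (TNC-KO) in suprarenal and 1332 and 1233 in infrarenal pools. Both infrarenal pools stood about 6-fold above both suprarenal pools (log2 difference 2.61, SE 0.14, adjusted p = 3.32e-06; 6.26-fold in WT and 5.94-fold in TNC-KO). Its cluster neighbours gave the same order without overlap. Hoxa9 had 609 and 536 suprarenal and 2295 and 1998 infrarenal (log2 difference 1.91, SE 0.12, adjusted p = 5.45e-06), and a second Hoxa9 probe set differed by 1.29. Hoxa11 was dimmer, at 47.3 and 24.6 suprarenal and 153 and 144 infrarenal (log2 difference 2.12, SE 0.43, adjusted p = 0.00554). It reached the array median in the infrarenal pools only, so the filter favoured this direction and its test carries less weight. With a pseudocount of 32 its log2 ratios fell from 1.695 (WT) and 2.542 (TNC-KO) to 1.223 and 1.632.

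The HoxC and HoxD clusters showed the same side. Hoxc10 had 116 and 134 suprarenal and 630.3 and 427 infrarenal (log2 difference 2.05, SE 0.23, adjusted p = 0.000216) and Hoxd9 170.0 and 118 suprarenal and 422 and 282 infrarenal (log2 difference 1.29, SE 0.21, adjusted p = 0.00166). Hoxd8 (0.75, 427 and 451 suprarenal and 823 and 666 infrarenal) and Hoxc9 (0.61, 302 and 274 suprarenal and 385 and 499 infrarenal) differed less, and on the contractile scale they were 0.22 and 0.07, neither called. Hoxc9 was also not called with all 8 arrays. Hoxc4 was the member lower in the infrarenal aorta, at 579 and 754 suprarenal and 383 and 325 infrarenal (log2 difference -0.91, SE 0.18, adjusted p = 0.00475). The other 11 members tested, all of paralogue groups 2 to 8, were not called, with Hoxc8, the brightest of them, at 1433 and 1414 suprarenal and 1552 and 1945 infrarenal (0.29). Hoxa5, Hoxc6 and Hoxc8 were also above in both infrarenal pools, by 0.29 or less with the probe set used. Of the 2 other Hoxc6 probe sets above the median, 1 had the opposite sign (-0.28) and 1 a larger difference (1.73). Without 1 pool at a time, 3 to 6 of the 19 were called higher. Of the most posterior genes, Hoxa13 (30.8 and 18.5 suprarenal and 60.4 and 76.2 infrarenal) and Hoxd13 (5.21 and 2.53 suprarenal and 25.9 and 26.9 infrarenal) stayed below the signal needed for a test in every pool. Hoxd10 and Hoxd12 lay on the same side in both genotypes, also untested. Not every posterior gene did so. In Hoxb9 (116 and 66.1 suprarenal and 90.0 and 114 infrarenal), Hoxb13, Hoxc13 and Hoxd11, none of them tested, the genotypes differed in direction.

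**Figure D3:**
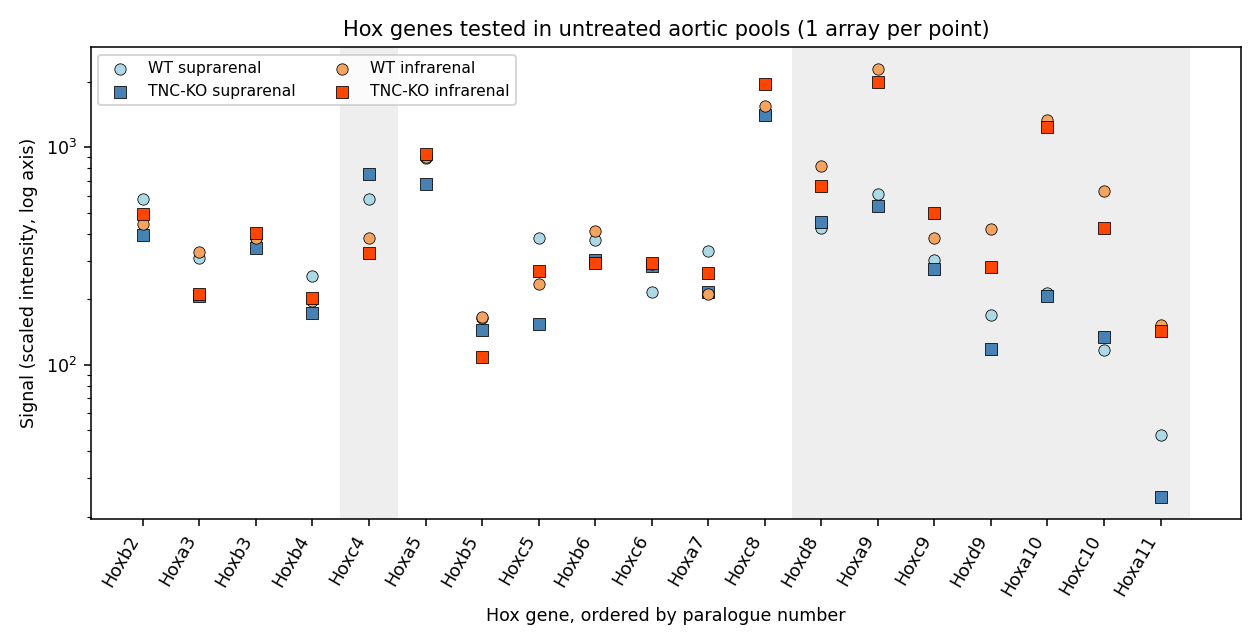
Signal (log axis) of the 19 Hox genes tested, ordered by paralogue number, 1 point per untreated pool; grey bands mark genes with adjusted p below 0.05. Both infrarenal points lie above both suprarenal ones at every gene from Hoxc8 onward, most widely at Hoxa10 (213 and 208 against 1332 and 1233), while Hoxc4 shows the opposite order; on the contractile scale Hoxc8 turns to -0.25.

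Other patterning factors went both ways: of 25 tested, 7 were higher in the infrarenal aorta and 5 lower, beside 12.7% and 16.7% of all genes tested. The higher ones were mesenchymal factors. Prrx1, a homeobox factor of mesenchyme, had 1949 and 1525 suprarenal and 3466 and 3405 infrarenal (log2 difference 0.99, SE 0.11, adjusted p = 0.000227), and Foxc1 (0.82), Meis2 (0.79), Osr1 (0.76), Foxc2 (0.75), Gata6 (0.74) and Tbx18 (0.52) were called as well. The list's median was 0.03 (-0.51 on the contractile scale). The lower ones, Tbx20 (-2.86), Hand2 (-2.81), Isl1 (-2.58), Eya1 (-2.41) and Tbx3 (-1.19), include Hand2 and Isl1, which sympathetic neurons need, and moved with the neuronal genes described below. Of 12 retinoid genes 6 were higher and none lower (median 0.31, -0.22 on the contractile scale). They were the retinaldehyde dehydrogenases Aldh1a2 (1.00), Aldh1a3 (0.94) and Aldh1a1 (0.63), the retinol carrier Rbp4 (0.79), Rdh10 (0.49) and Dhrs3 (0.47); the retinoid receptors were not called. Without the WT suprarenal, TNC-KO suprarenal, WT infrarenal and TNC-KO infrarenal pool in turn, 5, 3, 2 and 3 retinoid genes and 7, 3, 3 and 5 patterning factors were called higher, and with all 8 arrays 4 and 8.

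The angiotensin receptor genes Agtr1b and Agtr1a differed between the segments in opposite directions. Signals of different probe sets are not on a common scale, so the level of one receptor was not compared with that of the other. Agtr1b, which encodes the rodent type 1b angiotensin II receptor, had a signal of 99.7 (WT) and 132 (TNC-KO) in suprarenal and 759 and 738 in infrarenal pools (log2 difference 2.71, SE 0.20, adjusted p = 1.43e-05). Its paralogue Agtr1a had the reverse order, at 1984 and 2944 suprarenal and 440.5 and 681 infrarenal (log2 difference -2.14, SE 0.12, adjusted p = 2.91e-06). Neither pair of segments overlapped. The hormone's precursor gene Agt was below the array median in suprarenal pools and higher in infrarenal ones (25.9 and 65.4 suprarenal and 287 and 188 infrarenal; 2.50), and its converting enzyme Ace had 388 and 361 suprarenal and 633 and 565 infrarenal (0.68). Agt passed the signal filter through the infrarenal pools only, so the filter favoured this direction and its test carries less weight. With a pseudocount of 32 its log2 ratios fell from 3.467 (WT) and 1.522 (TNC-KO) to 2.46 and 1.175. The adrenal gland also makes angiotensin receptors. Hsd3b1 and Star were high in the TNC-KO infrarenal pool alone and Agtr1b was high in both infrarenal pools. The part of adrenal tissue in these signals was not tested.

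Among all 34 ion channel, calcium handling and vasoactive receptor genes tested, 17 were higher and 5 lower (median 0.53, 0.00 on the contractile scale). Over all genes tested these shares were 12.7% and 16.7%, so the lower count lies near the latter and is no result about the list. P2rx1, the ATP-gated channel through which sympathetic nerves contract smooth muscle, had 573 and 418 suprarenal and 1860 and 1877 infrarenal (log2 difference 1.93, SE 0.14, adjusted p = 1.62e-05). The serotonin receptors Htr2b (58.5 and 17.7 suprarenal and 177 and 186 infrarenal; 2.49) and Htr1b (862 and 885 suprarenal and 1836 and 2095 infrarenal; 1.17) and the vasopressin receptor Avpr1a (164 and 135 suprarenal and 315 and 401 infrarenal; 1.25) lay on the same side. So did the large conductance potassium channel, in its pore subunit Kcnma1 (0.97) and its smooth muscle beta subunit Kcnmb1 (0.81), the L-type calcium channel Cacna1c (0.89) and Kcna5 (0.72). Htr2b passed the signal filter through the infrarenal pools only, so the filter favoured this direction and its test carries less weight. With a pseudocount of 32 its log2 ratios fell from 1.597 (WT) and 3.387 (TNC-KO) to 1.207 and 2.129. The genes lower in the infrarenal aorta besides Agtr1a were Rgs16 (-2.04), Rgs4 (-1.28, 2991 and 4058 suprarenal and 1503 and 1372 infrarenal), Kcnq5 (-1.12) and Ryr2 (-0.49). The calcium pump Atp2a2 (6513 and 6298 suprarenal and 6850 and 6869 infrarenal; 0.10) and both subunits of guanylate cyclase, Gucy1a1 (0.26) and Gucy1b1 (-0.01), did not pass the test.

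Contractile smooth muscle genes were higher in the infrarenal aorta as a group: 23 of 28 were called, none was lower, and the median was 0.53. Most differences were small and alike. Myh11, the smooth muscle myosin heavy chain, had 14720 (WT) and 14216 (TNC-KO) in suprarenal and 18736 and 18978 in infrarenal pools (log2 difference 0.38, SE 0.08, adjusted p = 0.00738), Tagln 18687 and 16984 suprarenal and 23381 and 23371 infrarenal (0.39) and Cnn1 8736 and 7757 suprarenal and 12300 and 11114 infrarenal (0.51). Acta2, smooth muscle actin, was brighter still and was not called (28335 and 26276 suprarenal and 29284 and 32462 infrarenal; 0.18, adjusted p = 0.179). Larger differences were seen for Synm, an intermediate filament protein (1327 and 977 suprarenal and 3271 and 4392 infrarenal; log2 difference 1.74, SE 0.18, adjusted p = 0.000115), and for Actg2, the actin isoform of visceral muscle (2360 and 2069 suprarenal and 4818 and 4180 infrarenal; 1.02). Actc1, the cardiac actin gene and not a member of the list, differed more (591 and 257 suprarenal and 2387 and 1879 infrarenal; log2 difference 2.44, SE 0.19, adjusted p = 2e-05). Of the other heart genes tested, Tnnt2 (-0.15) and Myl4 (-0.36) were not called and Ryr2 was lower (-0.49). Contractile genes called higher numbered 3 without the WT infrarenal pool, 11 without the TNC-KO infrarenal, 14 without the TNC-KO suprarenal and 23 without the WT suprarenal pool, and 21 with all 8 arrays.

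Of 14 regulators of the smooth muscle state 8 were higher and 1 lower (median 0.49, -0.05 on the contractile scale). Without the WT suprarenal, TNC-KO suprarenal, WT infrarenal and TNC-KO infrarenal pool in turn 10, 5, 5 and 5 were higher, and 7 with all 8 arrays. Myocd, the cofactor that drives contractile genes, had 649 and 494 suprarenal and 834 and 1635 infrarenal (log2 difference 1.04, SE 0.26, adjusted p = 0.0141), its partner Srf 863 and 786 suprarenal and 1045 and 932 infrarenal (0.26, not called) and Fhl2 487 and 374 suprarenal and 1195 and 978 infrarenal (1.34). Klf4, known for opposing the contractile state, lay on the same side (2778 and 1797 suprarenal and 4811 and 3956 infrarenal; 0.96), and Ets1 was lower (3321 and 4491 suprarenal and 2135 and 1938 infrarenal; -0.93). Srf binds the CArG box, a ten-letter motif whose general pattern, though not each match, is the same on both strands, and RefSeq promoters (GRCm38.p6) were searched for it in the 250 bases before the start. It was found in 3 of the 24 contractile genes with a promoter entry, in 1 of 18 sympathetic genes and in 1.62% of all 27025 genes with one. The 3 contractile promoters are shown with the motif in capitals and up to 26 bases on each side, Myl6 from chr10:128493024-128493085, minus strand, Myl9 from chr2:156775277-156775338, plus strand and Vcl from chr14:20929148-20929206, plus strand.
Myl6: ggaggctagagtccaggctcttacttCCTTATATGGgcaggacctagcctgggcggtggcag
Myl9: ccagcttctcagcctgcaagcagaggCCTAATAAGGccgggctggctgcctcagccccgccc
Vcl: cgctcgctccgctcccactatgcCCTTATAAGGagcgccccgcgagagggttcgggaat
Myl6, an essential myosin light chain, had 2077 and 1726 suprarenal and 2757 and 2805 infrarenal (0.55) and Vcl, the adhesion protein vinculin, 9937 and 9044 suprarenal and 14076 and 12884 infrarenal (0.51), both called. Myl9, the regulatory light chain, had 24427 and 21363 suprarenal and 26783 and 28573 infrarenal (0.28) and was not called. A match is a description of these windows only.

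Matrix genes were mostly higher in the infrarenal aorta, with list medians from 0.44 to 0.70 beside 0.53 for the contractile genes. Among elastic fibre genes 14 of 17 were higher and 1 was lower (median 0.44, -0.09 on the contractile scale). Eln, elastin, had 7545 (WT) and 6295 (TNC-KO) in suprarenal and 9873 and 8127 in infrarenal pools (log2 difference 0.38, SE 0.09, adjusted p = 0.00984). The crosslinking enzyme Lox (2519 and 1952 suprarenal and 4340 and 3909 infrarenal; 0.89), the fibulin Fbln1 (1495 and 1479 suprarenal and 3486 and 2969 infrarenal; 1.11) and the latency protein Ltbp1 (3732 and 3395 suprarenal and 7321 and 6537 infrarenal; 0.96) differed more. Ltbp2, another latent TGF-beta binding protein, had the reverse order (1119 and 1106 suprarenal and 663 and 596 infrarenal; -0.82). Fbln7, outside the list and among the 25 most different genes, had 467 and 486 suprarenal and 1855 and 1726 infrarenal (log2 difference 1.91, SE 0.12, adjusted p = 7.65e-06).

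Collagens gave 18 of 21 higher and 1 lower (median 0.55, 0.01 on the contractile scale). Col8a1, a short-chain collagen of the vessel wall, stood out with 749.7 (WT) and 508 (TNC-KO) in suprarenal and 2160 and 2143 in infrarenal pools (log2 difference 1.80, SE 0.15, adjusted p = 2.99e-05). The fibrillar chains Col1a1 (3344 and 2756 suprarenal and 5278 and 4958 infrarenal; 0.75) and Col3a1 (23713 and 21639 suprarenal and 28712 and 29625 infrarenal; 0.36) differed less. The basement membrane chains Col4a3 (0.68), Col4a4 (1.03), Col4a5 (0.80) and Col4a6 (0.77) differed by more than Col4a1 (0.43) and Col4a2 (0.55), without a test between chains. Col5a3 was lower in the infrarenal aorta (611 and 933 suprarenal and 364 and 428 infrarenal; -0.94).

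Of 35 proteoglycan and matricellular genes 27 were higher and 2 lower (median 0.59, 0.06 on the contractile scale). Thbs1, an activator of latent TGF-beta, had 440.0 and 339.8 suprarenal and 1036 and 1084 infrarenal (1.45), Ccn4 179 and 167 suprarenal and 517 and 449.5 infrarenal (1.48) and Sparcl1 7282 and 7808 suprarenal and 14446 and 13315 infrarenal (0.88). Thbs4, a relative of Thbs1, was lower (512 and 366 suprarenal and 141 and 194 infrarenal; -1.39), as was Vtn (-0.66). Metalloproteinases and their inhibitors gave 14 of 19 higher and 1 lower (median 0.70, 0.17 on the contractile scale). Mmp3, stromelysin, had 1171 and 771 suprarenal and 2524 and 2449 infrarenal (log2 difference 1.39, SE 0.14, adjusted p = 0.000124) and Mmp2, a gelatinase, 2391 and 2162 suprarenal and 3904 and 3494 infrarenal (0.70). The tissue inhibitors lay on the same side: Timp1 (0.92), Timp2 (0.42), Timp3 (0.54) and Timp4 (0.87). Adam19 was lower (1034 and 1069 suprarenal and 615 and 476 infrarenal; -0.96). Timp2 was -0.12 on the contractile scale.

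The counts of wall genes called depended on each pool. Without the WT suprarenal, TNC-KO suprarenal, WT infrarenal and TNC-KO infrarenal pool in turn, 11, 5, 4 and 6 elastic fibre genes were higher, 17, 13, 9 and 11 collagens, 22, 19, 12 and 18 proteoglycan and matricellular genes and 13, 11, 9 and 10 metalloproteinase genes. Ion channel and receptor genes called higher numbered 17, 12, 7 and 12, endothelial genes 10, 9, 5 and 9 and fibroblast genes 14, 11, 8 and 8 in the same order. With all 8 arrays the counts were 12, 16, 21, 12, 16, 14 and 11.

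**Figure D4:**
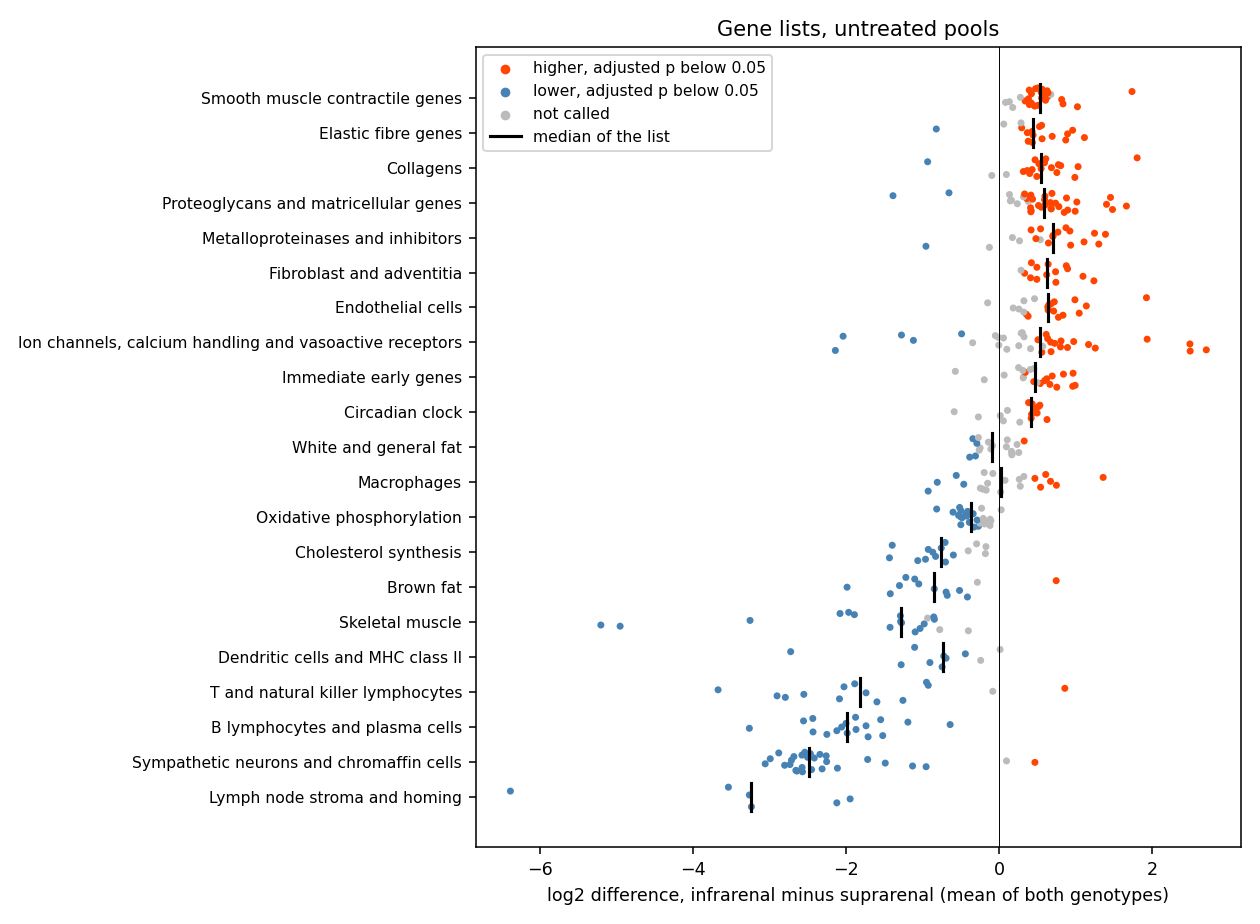
Log2 difference of infrarenal minus suprarenal signal for every tested member of 21 gene lists, orange where called higher, blue where called lower, grey where not called, with a black bar at the list's median. Medians of the contractile, matrix, fibroblast, endothelial and channel lists lie between 0.44 (elastic fibre genes) and 0.70 (metalloproteinases), and those of lymphocyte, neuronal and lymph node lists between -1.82 and -3.25. With arrays centred on the contractile list the contractile, elastic fibre, immediate early, circadian and macrophage medians turn negative (-0.01, -0.09, -0.06, -0.11 and -0.52).

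Endothelial genes were higher in 14 of 20 cases and lower in none (median 0.64, 0.11 on the contractile scale). Vwf, von Willebrand factor, had 1804 (WT) and 1306 (TNC-KO) in suprarenal and 6473 and 5247 in infrarenal pools (log2 difference 1.92, SE 0.10, adjusted p = 2.49e-06). Pan-endothelial genes differed by less, without a test between genes: Pecam1 (1860 and 1555 suprarenal and 3973 and 3529 infrarenal; 1.14), Cdh5 (0.77) and Nos3 (0.63). Kdr, the receptor of vascular endothelial growth factor, was not called (0.18, adjusted p = 0.474). Angpt4, an angiopoietin, had 246 and 244 suprarenal and 964 and 818 infrarenal (1.86) and its receptor Tek 1168 and 891 suprarenal and 2348 and 1744 infrarenal (0.99). Gkn3, a gastrokine gene also seen in arterial endothelium, had 615 and 486 suprarenal and 2030 and 1619 infrarenal (log2 difference 1.73, SE 0.12, adjusted p = 1.07e-05). Fibroblast and adventitia genes were higher in 13 of 14 cases (median 0.63, 0.10 on the contractile scale), with Clec3b (1.24), Dpep1 (1.09) and Pdgfra (2050 and 1950 suprarenal and 3948 and 3491 infrarenal; 0.89) in front. Pericyte genes gave 5 higher and 1 lower of 8 (median 0.57). Without the 4 pools in the order above 5, 4, 3 and 6 of them were higher. Lymphatic genes gave 1 higher and 1 lower of 6 (median 0.24, -0.29 on the contractile scale). Those lymphatic counts lie near the 12.7% and 16.7% of all genes tested and are no result about that list.

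Signalling genes of the wall followed the same side with some exceptions. IGF, FGF and PDGF genes gave 14 of 20 higher and none lower (median 0.59, 0.06 on the contractile scale), led by Fgf7 (339.6 and 260.2 suprarenal and 701 and 668 infrarenal; 1.20). TGF-beta genes gave 12 of 22 and none lower (median 0.39, -0.14), led by Inhba, a subunit of activin (544 and 638 suprarenal and 1637 and 1637 infrarenal; 1.47), while Smad2, Smad3 and Smad4 were not called. Notch genes gave 8 of 15 (median 0.44, -0.09), led by the ligands Dll1 (360.5 and 265 suprarenal and 615 and 762 infrarenal; 1.15) and Jag1 (1639 and 1623 suprarenal and 2861 and 3176 infrarenal; 0.89). Wnt genes gave 11 higher and 4 lower of 26 (median 0.35, -0.18), beside 12.7% and 16.7% of all genes tested. The lower counts of Wnt genes, and of cartilage and bone factors below, lie near the latter share and are no result about those lists. The enhancers of Wnt signalling Rspo2 (78.8 and 61.5 suprarenal and 258 and 253 infrarenal; 1.88) and Rspo3 (1.11) and the secreted antagonists Sfrp2 (3707 and 3531 suprarenal and 10026 and 8348 infrarenal; 1.34) and Sfrp4 (1.06) were higher, and Lef1 (-2.43), Sfrp5 (-1.24), Dkk1 (-1.09) and Wif1 (-0.60) were lower. Rspo2 and Wnt16 passed the signal filter through the infrarenal pools only and Lef1 through the suprarenal pools only. The filter therefore favoured the direction each of them had. Lef1 is also a T lymphocyte factor. Wnt16 (76.6 and 62.7 suprarenal and 150.5 and 579.9 infrarenal; 2.09) was highest in the TNC-KO infrarenal pool, which carried the adrenal and accessory gland transcripts. Cartilage and bone factors gave 6 higher and 2 lower of 15 (median 0.19, -0.35), among them Cytl1 (4613 and 3365 suprarenal and 12672 and 10215 infrarenal; 1.53) and Bmp6 (1.08), with Runx3, shared with lymphocytes, lower (-1.60). Without the WT suprarenal, TNC-KO suprarenal, WT infrarenal and TNC-KO infrarenal pool in turn, 13, 8, 5 and 9 IGF, FGF and PDGF genes were called higher, 11, 6, 6 and 7 TGF-beta genes, 6, 3, 3 and 5 Notch genes, 6, 5, 4 and 8 Wnt genes and 4, 3, 2 and 4 cartilage and bone factors. Wnt genes called lower numbered 4, 1, 2 and 1 and cartilage and bone factors 1, 1, 0 and 0. With all 8 arrays the higher calls were 13, 10, 8, 11 and 5.

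Sympathetic neuron genes were higher in the suprarenal aorta. Of 28 tested, 26 were lower in the infrarenal aorta and 1 was higher, with a median of -2.49 (-3.02 on the contractile scale), and the count stayed at 26 with all 8 arrays and without each pool in turn. Th, tyrosine hydroxylase, the first enzyme of noradrenaline synthesis, had 6763 (WT) and 9047 (TNC-KO) in suprarenal and 1175 and 958 in infrarenal pools (log2 difference -2.88, SE 0.15, adjusted p = 2.76e-06). Dbh, which makes noradrenaline from dopamine, had 7428 and 9272 suprarenal and 1374 and 1673 infrarenal (-2.45), the vesicle transporter Slc18a2 6856 and 9369 suprarenal and 1113 and 1397 infrarenal (-2.68) and the noradrenaline transporter Slc6a2 2399 and 3898 suprarenal and 463 and 879 infrarenal (-2.26). The infrarenal pools still carried signals near or above 1000 for Th and Dbh. Nefm, a neurofilament subunit, had 3381 and 5699 suprarenal and 479.7 and 578 infrarenal (-3.06), the nicotinic receptor Chrna3 of ganglion cells 1682 and 2388 suprarenal and 267 and 378 infrarenal (-2.66) and the transmitter Npy 17733 and 20028 suprarenal and 6920 and 6502 infrarenal (-1.49). In every one of these genes the TNC-KO suprarenal pool was above the WT one.

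Chromaffin cells of the adrenal medulla share most of this list. Pnmt, the enzyme that sets adrenaline-making cells apart, was flat (152 and 158 suprarenal and 157 and 174 infrarenal; 0.10, not called), and Penk was the member called higher (1841 and 1789 suprarenal and 2562 and 2453 infrarenal; 0.47). Satellite and Schwann cell genes gave 7 of 14 lower and none higher (median -0.49, -1.03 on the contractile scale). The count of 7 was also that of all 8 arrays, and 9, 4, 3 and 2 were lower without the 4 pools in the order above. The largest differences were those of Ngfr (2647 and 4215 suprarenal and 656 and 673 infrarenal; -2.33) and Fabp7 (4020 and 5863 suprarenal and 1236 and 1178 infrarenal; -2.01), and for Mbp the direction turned with another probe set (0.23). Of the 7 other Mbp probe sets above the median, 5 had the opposite sign to the one used (-0.76), within a range of -0.8 to 0.28. Sox10, a glial factor, was not called (0.30) but was lower with another probe set (-1.09). Of 3 genes of sensory and other neurons 1 was lower, Avil (-2.21). Neuronal genes outside the list were among the 25 most different: Rab3c, a vesicle protein, had 3469 and 5720 suprarenal and 359.6 and 453 infrarenal (log2 difference -3.46, SE 0.13, adjusted p = 9.99e-07), and Celsr3 (142 and 297 suprarenal and 10.8 and 6.59 infrarenal) and Stmn4 (284 and 485 suprarenal and 18.1 and 18.7 infrarenal) had infrarenal signals far below the array median, where the size of a fold has little meaning. The potassium channel Kcnq3 (1712 and 2779 suprarenal and 214 and 347 infrarenal) and Bex1 (-3.35), a small protein of neurons, were on the same side.

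The cyclic AMP response element (CRE), TGACGTCA, is bound by the factor CREB and is its own reverse complement. In the 250 bases before the start it was found in 3 of 18 sympathetic genes with a promoter entry, in 2 of 24 contractile genes and in 1.77% of all 27025 genes. The 3 promoters are printed with the element in capitals, from RefSeq, Th from chr7:142900007-142900066, minus strand, Chgb from chr2:132781544-132781603, plus strand and Scg2 from chr1:79440061-79440120, minus strand.
Th: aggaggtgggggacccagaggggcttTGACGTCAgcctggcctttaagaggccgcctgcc
Chgb: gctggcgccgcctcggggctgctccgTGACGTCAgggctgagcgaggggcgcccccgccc
Scg2: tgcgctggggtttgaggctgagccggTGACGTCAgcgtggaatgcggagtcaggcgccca
The element begins 45 bases before the start of Th, 72 before Chgb and 68 before Scg2. Chgb and Scg2 encode granins of secretory vesicles, with 3552 and 5031 suprarenal and 635 and 719 infrarenal (-2.65) for Chgb and 4285 and 5702 suprarenal and 496 and 778 infrarenal (-2.99) for Scg2. All 3 genes were lower in the infrarenal aorta, and so were most genes of the list whose windows are not shown.

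Lymphoid genes were lower in the infrarenal aorta as well. All 17 B lymphocyte genes tested were lower in the infrarenal aorta (median -1.99). So were 12 of 14 T and natural killer cell genes (median -1.82) and all 6 genes of lymph node stroma and homing (median -3.25). On the contractile scale the medians were -2.52, -2.35 and -3.79. Some members, such as Cd8b1 and Ccr7, reached the array median in suprarenal pools only. For them the filter favoured this direction, and their tests carry less weight. Over all members on the array, tested or not, the medians were -1.93, -1.6 and -2.12. Ms4a1, which encodes CD20 of B cells, had 1697 (WT) and 2395 (TNC-KO) in suprarenal and 352 and 333 in infrarenal pools (log2 difference -2.56, SE 0.16, adjusted p = 5.57e-06). Cd3d, of the T cell receptor complex, had 759.9 and 1096 suprarenal and 128 and 134 infrarenal (-2.80), and Cd8b1 591 and 623 suprarenal and 44.6 and 50.6 infrarenal (log2 difference -3.67, SE 0.24, adjusted p = 8.09e-06). Glycam1, made by the high endothelial venules of lymph nodes, had 2707 and 3182 suprarenal and 4.92 and 249 infrarenal, with no overlap and near background in the WT infrarenal pool. The chemokine Cxcl13, which draws B cells into follicles, had 1635 and 2278 suprarenal and 567 and 441 infrarenal (-1.95), the lymphotoxin gene Ltb 1635 and 2077 suprarenal and 124 and 202 infrarenal (-3.54) and the homing receptor Ccr7 345 and 431 suprarenal and 37.1 and 45 infrarenal (-3.24). Gzma was the lymphocyte gene called higher (147 and 193 suprarenal and 390.1 and 239 infrarenal; 0.86). Dendritic cell and MHC class II genes were lower in 8 of 10 cases (median -0.74). Without the 4 pools in the order above, 15, 11, 15 and 15 B lymphocyte, 10, 8, 12 and 10 T and natural killer, 6, 5, 6 and 6 lymph node and 5, 5, 6 and 4 dendritic cell genes were lower, and 15, 12, 6 and 8 with all 8 arrays. Gzma was not among the calls from all 8 arrays.

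Macrophage genes were divided: 6 were higher and 4 lower of 21 (median 0.02, -0.52 on the contractile scale), beside 12.7% and 16.7% of all genes tested. The scavenger receptor Cd163 (708 and 652 suprarenal and 1132 and 1150 infrarenal; 0.75), F13a1 (0.67), Mrc1 (0.61) and Gpnmb (352 and 530.2 suprarenal and 1136 and 1081 infrarenal; 1.36) were higher. Aif1 (-0.93), Ctss (4307 and 4080 suprarenal and 2529 and 2261 infrarenal; -0.81), Lyz2 (-0.56) and Cd68 (-0.46), of which Ctss is also used by antigen-presenting cells, were lower. Without the 4 pools in the order above 6, 3, 2 and 3 macrophage genes were higher and 3, 3, 4 and 2 lower, and 6 and 3 with all 8 arrays. Adgre1, the F4/80 antigen, did not pass the test (783 and 723 suprarenal and 856 and 677 infrarenal; 0.02). Mast cell genes gave 2 higher and 1 lower of 6 (1 and 1 with all 8 arrays), and neutrophil genes 1 higher of 3, S100a9, which was higher in both WT pools than in both TNC-KO pools (1224 and 223 suprarenal and 1489 and 350.0 infrarenal) and turned to -0.76 without the TNC-KO suprarenal pool.

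Fat genes differed by kind. Brown fat genes were lower in the infrarenal aorta in 11 of 13 cases and higher in 1 (median -0.85, -1.38 on the contractile scale). Without the 4 pools in the order above 7, 7, 8 and 7 were lower, and 8 with all 8 arrays. Ucp1, the uncoupling protein that lets brown fat make heat, had 15023 (WT) and 10594 (TNC-KO) in suprarenal and 5716 and 5125 in infrarenal pools (log2 difference -1.22, SE 0.10, adjusted p = 3.84e-05), and stayed bright below the kidneys. Cidea had 14007 and 12249 suprarenal and 8114 and 8233 infrarenal (-0.68) and Cox8b 17148 and 13421 suprarenal and 9693 and 9060 infrarenal (-0.69). Prdm16, a factor of the brown fat state, had the reverse order (706 and 617 suprarenal and 908 and 1345 infrarenal; 0.74). White and general fat genes were nearly level: 4 of 18 were lower and 1 higher (median -0.10, -0.63 on the contractile scale), beside 16.7% and 12.7% of all genes tested. None was called with all 8 arrays (2 at an unadjusted p under 0.05 in limma). Adipoq had 21507 and 20668 suprarenal and 22559 and 24721 infrarenal (0.16) and Fabp4 36221 and 32824 suprarenal and 37915 and 39169 infrarenal (0.16), neither called.

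Metabolic lists lay on the suprarenal side. Genes of oxidative phosphorylation were lower in the infrarenal aorta in 17 of 26 cases (median -0.37, -0.90 on the contractile scale), but in 1 to 17 with 1 pool left out, 1 without either infrarenal pool, and in 13 with all 8 arrays. Fatty acid oxidation and uptake gave 14 of 21 (median -0.46, -0.99), 3 to 14 with 1 pool left out, 3 without the TNC-KO infrarenal pool and 4 without the WT infrarenal or the WT suprarenal one, and 11 with all 8 arrays. Cholesterol synthesis gave 11 of 15 (median -0.76, -1.29), 11, 6, 5 and 7 without the 4 pools in the order above and 11 with all 8 arrays. Fdps had 3063 and 4178 suprarenal and 1313 and 1333 infrarenal (log2 difference -1.44, SE 0.12, adjusted p = 4.12e-05), Sqle 1529 and 2017 suprarenal and 647 and 686 infrarenal (-1.40) and Hmgcs1 8616 and 10008 suprarenal and 5576 and 4878 infrarenal (-0.83). Each was higher in the TNC-KO than in the WT suprarenal pool, the order the sympathetic genes had, whereas the brown fat genes Ucp1, Cidea and Cox8b had the opposite order. The part of either tissue in these lists was not tested.

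Skeletal muscle genes were lower in the infrarenal aorta in 15 of 18 cases (median -1.28, -1.82 on the contractile scale), but the WT and TNC-KO pools did not share a level. Acta1, skeletal actin, had 14074 (WT) and 594 (TNC-KO) in suprarenal and 5023 and 363 in infrarenal pools, and Myh1, a fast myosin, 11539 and 442 suprarenal and 97.5 and 38.3 infrarenal. For Acta1 the WT infrarenal pool was above the TNC-KO suprarenal one. With all 8 arrays 2 members were called, and without the 4 pools in turn 1, 4, 0 and 0, and without the WT suprarenal or the TNC-KO infrarenal pool Acta1 turned to 1.18 and 0.80.

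Immediate early genes, which respond within minutes to stress and handling, were higher in 12 of 22 cases and lower in none (median 0.47, -0.06 on the contractile scale), 7 with all 8 arrays. Without the 4 pools in the order above 10, 4, 4 and 4 were called. Fos had 2362 and 1289 suprarenal and 4026 and 1719 infrarenal (0.59) and Egr1 5580 and 2598 suprarenal and 7875 and 3876 infrarenal (0.54), each higher in the WT than in the TNC-KO pool of a segment. Fos turned to -0.02 without the WT infrarenal pool and Egr1 to -0.014 without the TNC-KO suprarenal pool. For Jund the direction turned when probe sets were averaged (-0.15). Circadian clock genes gave 10 of 16 higher and none lower (median 0.42, -0.11 on the contractile scale), and 0 with all 8 arrays (4 at an unadjusted p under 0.05 in limma), while without the pools in turn 3, 3, 2 and 0 were called. Ciart (235 and 277 suprarenal and 398 and 389 infrarenal; 0.62), Per3 (969 and 1184 suprarenal and 1531 and 1565 infrarenal; 0.53) and Per2 (0.52) led them, and Per2 and Per3 were -0.018 and -0.002 on the contractile scale. The hour of tissue collection is not given in the sources used here.

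Over all genes tested 12.7% were called higher and 16.7% lower. The interferon and chemokine counts that follow lie near these shares and are no result about those lists. Interferon response genes gave 3 higher and 2 lower of 22 (median -0.13, -0.66 on the contractile scale), and chemokines and cytokines 4 and 2 of 17 (median 0.19, -0.35), the 2 lower ones being the lymphoid Ccl5 (2067 and 2672 suprarenal and 462 and 539 infrarenal; -2.23) and Cxcl13. Complement and acute phase genes gave 6 of 14 higher and none lower (median 0.35, -0.18), with Lbp at 1177 and 896 suprarenal and 2457 and 2217 infrarenal (1.18). Without the 4 pools in the order above the interferon genes called higher numbered 3, 3, 2 and 0 and lower 1, 0, 0 and 0, the chemokines called higher 3, 0, 0 and 0 and the complement genes called higher 6, 6, 4 and 5. All 8 arrays gave 2 and 0 interferon genes, 0 and 2 chemokines and 6 complement genes, and in that fit 6 interferon genes and 2 chemokines, in either direction, had an unadjusted p under 0.05 in limma. Of 14 cell cycle genes none was called in limma, and 2 passed an unadjusted p under 0.05 (median -0.18, -0.71). Unfolded protein response genes gave 2 higher and 1 lower of 23 (median 0.09, -0.45), the lower one being Asns (1947 and 2092 suprarenal and 1173 and 1147 infrarenal; -0.80), and 0, 0, 0 and 1 higher without the 4 pools in the order above. Of 7 adrenal cortex genes 1 was called, Dab2 (0.67), which the vessel wall also expresses. Of the few tested genes of mesothelium, gut and urinary epithelium, seminal tract, pancreas and heart, Gpm6a (0.93), Epcam (0.77), Svs5 (2.81) and Actc1 were called higher and Cela1 (-1.08) and Ryr2 lower; Svs5 was high in the TNC-KO infrarenal pool alone, and Svs5, Cela1 and Ryr2 were not called with all 8 arrays.

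Some of the genes with the largest infrarenal excess are known from blood and belong to no wall list. Alas2, the enzyme of haem synthesis in red cell precursors, had 141 (WT) and 172 (TNC-KO) in suprarenal and 1369 and 1165 in infrarenal pools (log2 difference 3.02, SE 0.17, adjusted p = 4.15e-06), and the platelet chemokine Ppbp 144 and 130.4 suprarenal and 938 and 873 infrarenal (log2 difference 2.73, SE 0.17, adjusted p = 5.57e-06). The red cell band 3 gene Slc4a1 had 44.8 and 27.4 suprarenal and 277 and 99.2 infrarenal and passed the array median in 1 pool only, so it was not tested. The haemoglobin gene Hba-a1 was below the array median in every pool and did not share this order (40.5 and 3.65 suprarenal and 22.3 and 40.7 infrarenal), with the WT pools in the reverse one. Pcp4, a calmodulin-binding protein, had 125 and 129 suprarenal and 594 and 655 infrarenal (log2 difference 2.29, SE 0.19, adjusted p = 2.86e-05), Tmem158 878 and 682 suprarenal and 3332 and 3038 infrarenal (log2 difference 2.04, SE 0.11, adjusted p = 3.6e-06), Enpp6 200.1 and 205 suprarenal and 645 and 746 infrarenal (1.78) and Ecrg4 306 and 249 suprarenal and 1007 and 1660 infrarenal (2.23). Olr1, a receptor for oxidised low density lipoprotein (42.2 and 17.1 suprarenal and 182 and 243 infrarenal; 2.97), and the transcription factors Hif3a (23.4 and 67.1 suprarenal and 192 and 316 infrarenal; 2.63) and Atoh8 (68 and 51.5 suprarenal and 322 and 249 infrarenal; 2.26) started near background in suprarenal pools. In each of these genes other than Hba-a1 both infrarenal pools lay above both suprarenal ones. For Olr1, Hif3a and Atoh8 the signal filter favoured this direction, since only infrarenal pools reached the array median.

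The regional pattern was partly present in the pools given CaAngII. The infrarenal segment was the one exposed to CaCl2, so segment and CaCl2 go together in these pools. The CaAngII pools also differed in other tissue and cells. Pancreas genes summed to 733 (WT) and 1307 (TNC-KO) in suprarenal and 71405 and 12118 in infrarenal CaAngII pools. Neutrophil genes summed to 1120 and 36066 suprarenal and 8711 and 13135 infrarenal. The part of these in the segment differences and interactions below was not tested. The segment difference was larger or more positive under CaAngII for 1021 of 12208 genes tested (8.36%) and smaller or more negative for 928 (7.6%) by the interaction term of the 8-array fit. Of the 126 genes at least 2-fold higher in untreated infrarenal pools of both genotypes, 86 were higher in both genotypes under CaAngII, 39 of them at least 2-fold, and 18 were lower in both. Their medians went from 1.30 (WT) and 1.35 (TNC-KO) to 0.69 and 0.69, and the interaction called 50 of them smaller and 7 larger. Of the 682 lower genes 511 were lower in both genotypes, 435 at least 2-fold, and 151 were on the opposite side in both. Their medians went from -1.73 (WT) and -1.98 (TNC-KO) to -1.93 and -1.70, and the interaction called 176 of them smaller and 37 larger. All 808 genes were chosen for their size without treatment, on arrays that also enter the interaction. A smaller median under CaAngII, or more genes called smaller than larger, is therefore no result by itself. The interactions given below for genes named by their untreated difference share this limit.

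The 7 Hox genes called higher were also higher in infrarenal pools of both genotypes under CaAngII. Hoxa10 had 239 and 251 suprarenal and 671 and 797 infrarenal under CaAngII, with an interaction of -1.03 (adjusted p = 0.0121), and Hoxa9 662 and 572 suprarenal and 1609 and 1707 infrarenal, with an interaction of -0.48 (adjusted p = 0.0966). Sympathetic genes stayed on the suprarenal side, with medians of -3.26 (WT) and -3.14 (TNC-KO). Lymphoid genes changed sides: the B lymphocyte medians were 1.95 and 1.14 under CaAngII, and Ms4a1 had 131 and 170.3 suprarenal and 1064 and 479 infrarenal, an interaction of 4.82 (adjusted p = 0.00127). Contractile genes had medians of -0.56 and -0.24. Agtr1b had 109.8 and 78.5 suprarenal and 219 and 192 infrarenal, an interaction of -1.56 (adjusted p = 0.0209). Agtr1a had 2515 and 2066 suprarenal and 383 and 391 infrarenal, an interaction of -0.415 (adjusted p = 0.416). Pcp4 was level at 134 and 143 suprarenal and 133 and 130.0 infrarenal, an interaction of -2.37 (adjusted p = 0.00162). Vwf had 2097 and 1692 suprarenal and 2625 and 2688 infrarenal, an interaction of -1.43 (adjusted p = 0.00237). For Col8a1, at 2033 and 1423 suprarenal and 6308 and 6545 infrarenal, the interaction was 0.12 (adjusted p = 0.788). Alas2 and Ppbp, which led the ranking of genes higher in untreated infrarenal pools of both genotypes, had 459 and 1694 suprarenal and 354 and 329 infrarenal and 236 and 4253 suprarenal and 202 and 522 infrarenal, interactions of -4.39 (adjusted p = 0.00394) and -4.35 (adjusted p = 0.0574).

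**Figure D5:**
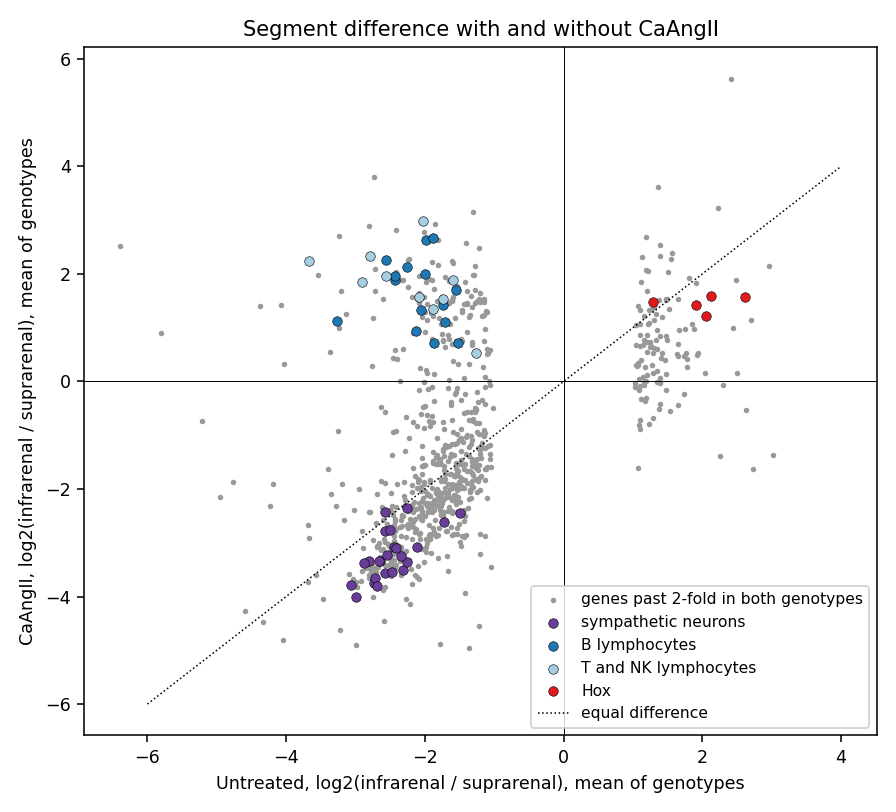
Mean log2 ratio of infrarenal over suprarenal signal without treatment (x) and under CaAngII (y) for the 808 genes past 2-fold in both untreated genotypes, 1 gene per point. The marked sympathetic genes lie at the lower left and the 5 marked Hox genes at the upper right, while the marked B and T lymphocyte genes lie above 0 under CaAngII.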

How the data were processed

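Signal was measured on Affymetrix Mouse Genome 430 2.0 arrays, 1 array per pool of RNA, with no replicate array of a pool. The submitters' processing notes name Affymetrix Expression Console, with no algorithm or version. Values are the deposited linear intensity, and their trimmed means were alike on all arrays, so the authors had scaled them to a common mean. Each gene was represented by its probe set of highest mean log2 intensity over the 22 arrays. Log2 intensities without a pseudocount were fitted with limma 3.58.1 in R 4.3.3 (genotype and segment, 4 arrays, intensity trend), with Benjamini-Hochberg adjustment over all genes tested. The error behind the p-values is the disagreement of the 2 genotypes in their segment difference, moderated over genes. No genotype had a second untreated pool of a segment. Spread between pools and a genotype effect on the segment difference are therefore not separated. On artificial data with known answers, where 200 of 11611 genes were changed, 15.25% of the genes called by the 4-array fit were false. That is more than its threshold states, so the overall counts, and those of many lists, are also given from all 8 aortic arrays. The untreated segment difference from all 8 arrays was not checked on such data. The interaction of segment and CaAngII was fitted on those 8 arrays, and on artificial data 5.45% of its calls were false.

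The members and gene lists were chosen with earlier results of these data known. Named genes were Tnc, all Hox genes tested, the 25 genes that differed most in each direction in both genotypes, up to 6 members of each list by size, the first 3 markers of each cell list, 5 genes of opposite sign and 5 interaction genes of each sign. Other genes were named after their values were seen. The 14 arrays of cultured cells served only to choose probe sets.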

Additional observations from a re-analysis of the deposited data

Results flagged for a closer look

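In 5 genes the genotypes moved in opposite directions by at least 2-fold, and the difference between genotypes was not tested, since each ratio rests on 1 array per segment. As log2 ratios in WT and TNC-KO, Vsig2 had -1.53 and 1.14 (the smaller size being 1.137), Gm13306 had 1.37 and -1.08 (the smaller size being 1.076), Bmp7 had -1.07 and 1.25 (the smaller size being 1.07), Psg28 had -1.05 and 1.12 (the smaller size being 1.055) and Cd160 had -1.24 and 1.03 (the smaller size being 1.034). Bmp7 encodes a bone morphogenetic protein and Cd160 a receptor of natural killer and T cells.

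The interaction term of limma over 8 arrays gave 10 genes of lowest adjusted p, 5 in each direction, whose segment difference was not the same with and without CaAngII. Genes of immune cells gained, in log2 ratios of WT and TNC-KO pools. Epsti1 went from -1.68 and -1.75 without treatment to 2.04 and 1.83 under CaAngII, an interaction of 3.653. Igha went from -2.32 and -1.72 without treatment to 2.82 and 2.74 under CaAngII, an interaction of 4.795. Il7r went from -1.88 and -2.18 without treatment to 3.37 and 2.61 under CaAngII, an interaction of 5.019. Irf8 went from -1.84 and -1.97 without treatment to 2.12 and 1.65 under CaAngII, an interaction of 3.785. Cybb went from -0.38 and -0.60 without treatment to 2.43 and 2.30 under CaAngII, an interaction of 2.853. The genes that moved toward the suprarenal side included Ucp1 of brown fat and Hhip, which binds hedgehog ligands. Ucp1 went from -1.39 and -1.05 without treatment to -4.77 and -4.35 under CaAngII, an interaction of -3.335. Dsp went from -1.24 and -1.16 without treatment to -3.18 and -3.25 under CaAngII, an interaction of -2.013. Ptprz1 went from 0.29 and 0.00 without treatment to -2.26 and -2.03 under CaAngII, an interaction of -2.289. Tspan2 went from 0.67 and 0.67 without treatment to -1.13 and -0.99 under CaAngII, an interaction of -1.731. Hhip went from 1.12 and 1.04 without treatment to -1.82 and -1.38 under CaAngII, an interaction of -2.684.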

How the results depend on the processing

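Most counts of genes called stayed within 1.5 times of those reported under quantile normalization, median centring, a pseudocount of 32, other filters, another choice of probe set, robust hyperparameters and all 8 arrays. The mean of all probe sets gave 976 higher and 1185 lower genes, and limma without an intensity trend gave 808 higher. Centring on the contractile list, chosen after seeing the data, gave 277 higher and 8225 lower, 23 and 1425 at 2-fold, and raised the lists with a median below 0 from 16 to 39. With 1 pool left out 477 to 991 genes were higher and 881 to 1359 lower. Genes at least 2-fold in both genotypes numbered 450 and 1078 without a filter on signal, and 414 lower ones at the 70th percentile. They numbered 538 and 1168 at 1.5-fold, 23 and 368 at 3-fold, and 204 to 298 higher in 1 genotype's pair alone, also chosen after seeing the data. Interaction calls with 1 pool left out ranged from 542 to 1051 higher and from 397 to 863 lower, the fewest without the WT infrarenal CaAngII pool and without the TNC-KO infrarenal untreated pool, and were 570 lower without a trend.

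Without the genotype as a replicate block, 1112 genes were higher and 1567 lower, and the interaction called 1103 and 983. The 2 genotypes share a number only, and no animal links a segment pair by label.

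Genes changed sign on the contractile scale where their difference was under 0.53: Acta2 -0.357, Adgre1 -0.515, Adipoq -0.369, Atp2a2 -0.434, C1s1 -0.041, Ccl6 -0.049, Ccl9 -0.101, Cnn1 -0.027, Col3a1 -0.168, Col4a1 -0.103, Dhrs3 -0.059, Dnajc3 -0.11, Eif2s3y -0.327, Eln -0.155, Fabp4 -0.373, Fdx1 -0.453, Flt4 -0.407, Gucy1a1 -0.278, Hlf -0.039, Hoxa3 -0.47, Hoxb3 -0.419, Hoxb6 -0.477, Kdm5d -0.388, Lgals4 -0.405, Myh11 -0.151, Myl9 -0.257, Nr1d2 -0.056, Pdia3 -0.275, Pdia4 -0.11, Pdpn -0.378, Penk -0.067, Per2 -0.018, Per3 -0.002, Pi16 -0.041, Pmp22 -0.399, Ptprz1 -0.388, Rdh10 -0.046, Retn -0.207, S100a9 -0.067, Smad3 -0.35, Smad4 -0.379, Tagln -0.141, Tbx18 -0.016, Timp2 -0.117, Tnc -0.119 and Vcl -0.027. The mean of all probe sets gave -0.148 for Jund, and another probe set 0.225 for Mbp and -1.088 for Sox10. With 1 pool left out values spanned -3.382 to 1.184 for Acta1, -3.737 to 0.882 for Ckm, -0.014 to 1.089 for Egr1, -0.021 to 1.206 for Fos, -1.031 to 1.101 for Psg28, -0.762 to 1.693 for S100a9, -1.019 to 1.847 for Tnc, -4.537 to 0.751 for Tnni2, -4.653 to 0.492 for Tnnt3 and -4.29 to 0.353 for Ttn. None of the 50 genes that differed most, 25 in each direction, changed sign in any alternative in which it was tested, though some lost their call. These 50 were ranked on the same 4 arrays by the smaller of the WT and TNC-KO ratios. A change of sign was thus unlikely from the start, and its absence is no support for them. Except for the contractile scale, whose construction shifts every gene by the same amount, the cause of the changes listed above was not tested. With 4 arrays the number of pools limits precision, and signals far below the array median carry no reliable fold.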
